A study of Mus musculus with 2 samples.

Results

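Described here are 8 genes of the developing choroid plexus and of the roof plate that gives rise to it: Ttr, Kcne2, Clic6, Folr1, Kl, Slc4a5, Kcnj13 and Gdf7. Their rows were found by symbol. All 8 had a row in both gene tables and in both transcript tables, out of 43346 Ensembl genes in each gene table. The RNA came from hindbrains of B6NCrl mouse embryos aged 11.5 days, recorded as healthy, with both sexes mixed. The series held 1 group with no treatment or mutant allele, in 2 biological replicates: pool 1 combined 109 embryos and pool 2 combined 88. Input per library was 10 ng of RNA in the size range above 200 nt, and synthetic ERCC spike-in RNAs were added. Whole hindbrains were taken, so choroid plexus cells were measured together with all other cells of the tissue, and the labels give the same donor entry for both pools.

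The roof plate is the strip of cells along the dorsal midline of the neural tube, and it signals to its neighbours with secreted proteins of the BMP and WNT families. Over the fourth ventricle of the hindbrain it widens into a thin epithelial sheet, from which the first choroid plexus of the mouse brain forms. The choroid plexus epithelium makes the cerebrospinal fluid by moving ions and water across the cell layer, and it loads the fluid with carrier proteins, vitamins and hormones. Otx2, a homeodomain factor, is needed for its formation.

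Levels are TPM, a measure per length of a gene's share of a library, so they can be compared between genes. They are given for pool 1 and then pool 2, or as mean ± SD (n = 2). An interval was deposited around each TPM, but no source used here states its level. Each pool was sequenced once, so no difference between them could be tested and none carries a p-value. In whole tissue, fewer cells of a type and less RNA per cell cannot be told apart.

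The libraries held 45340440 and 41261544 expected counts, of which 41982915 and 36833678 lay on Ensembl genes. Spike-ins took 16.2% and 22.2% of TPM. Hindbrain identity was checked on 5 marker genes, of which 4 reached 1 TPM in both libraries, led by Hoxa2 (49.3 and 48.1 TPM) and Hoxb2 (48.9 and 46.4). Of 5 forebrain markers 1 passed that level, Lhx2 (18.4 and 15.1 TPM).

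Ttr stood far above the other 7 genes in level, and the 8 genes together spanned from abundant to barely detected. Summed over the 8, TPM was 264.2 in pool 1 and 192.0 in pool 2, and Ttr held 85.0% of that sum in each. Ranked by mean TPM the order was Ttr, Kcne2, Folr1, Kcnj13, Clic6, Slc4a5, Gdf7 and Kl. Detection, set at 1 TPM or more in each library, was reached by 6 of the 8 and not by Gdf7 and Kl. The mean TPM of Ttr was 14.1 times that of Kcne2, the largest step between neighbours by mean TPM. In pool 1 alone, where it was 12.9 times, the step from Gdf7 to Kl was larger, at 20.8 times. Clic6 and Slc4a5 were the only neighbours whose ranges over the 2 libraries overlapped, with 2.35 TPM as the lower value of Clic6 and 2.39 as the higher value of Slc4a5. By the deposited intervals, Folr1 and Kcnj13 could not be ordered in either library, nor could Clic6 and Slc4a5. In pool 2 alone the same held for Kcne2 and Folr1, and for Gdf7 and Kl.

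**Figure D1:**
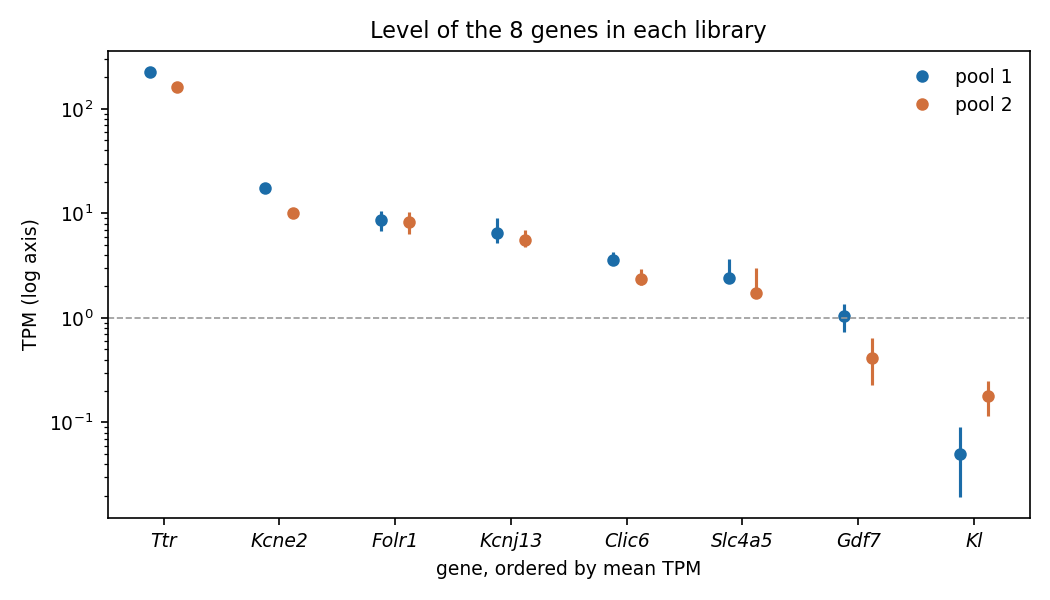
TPM of the 8 genes in each library (log axis), ordered by mean TPM, with pool 1 in blue and pool 2 in orange; points are the deposited TPM, bars the deposited intervals, and the dashed line a TPM of 1. Ttr sits at 225 and 163 TPM, 6 genes lie above the line in both libraries, and Kl lies below it in both.

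Ttr encodes transthyretin, the carrier of thyroxine and of the retinol-binding protein in cerebrospinal fluid, and a classical mark of choroid plexus epithelium. It lies on the forward strand of chromosome 18 (20665280 to 20674321, GRCm38; ENSMUSG00000061808.3) and has 1 transcript in the tables. Its level was 225 TPM in pool 1 (deposited interval 215 to 225) and 163 in pool 2 (156 to 164), a mean of 194 ± 43.4 (SD, n = 2). These values rest on 7398 and 5167 expected counts and rank 658 among 21474 protein-coding genes. The library from pool 1 was the higher and the deposited intervals did not overlap. The pool ratio, log2(TPM + 1) in pool 2 minus that in pool 1 and relative to the median gene, was -0.35. On expected counts the ratio of pool 2 to pool 1, again relative to the median gene, was 0.796 (95% interval 0.768 to 0.825). That interval is the exact Clopper-Pearson interval of the split of reads between the libraries and covers counting error only, here and below. The protein-coding genes on either side were Dsg2 (0.58 and 0.50 TPM) and B4galt6 (10.8 and 8.44 TPM). The antisense gene Gm16090 starts 20 bases from the start of Ttr and runs away from it on the opposite strand. It was at 0.14 TPM in both libraries.

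Kcne2 and Kcnj13 encode potassium channel proteins of the apical side of the choroid plexus epithelium. KCNE2 is a single-span subunit that changes the gating of partner channels such as KCNQ1, and KCNJ13 (Kir7.1) is an inward rectifier that passes potassium itself. Kcne2 was the second most abundant of the 8 genes and the one furthest apart between the pools by TPM among the 6 detected. Kcnj13 was lower in level and close to equal in the 2 libraries.

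Kcne2 (ENSMUSG00000039672.8) lies on the forward strand of chromosome 16, from 92292389 to 92298129. It measured 17.4 TPM in pool 1 (deposited interval 16 to 18.4) and 10.1 in pool 2 (9.08 to 10.9), a mean of 13.8 ± 5.16 (SD, n = 2). Pool 1 was the higher, and the deposited intervals were apart. The pool ratio was -0.62 on log2(TPM + 1) relative to the median gene, which is 1.54-fold lower in pool 2. By expected counts, 815 and 455, the ratio was 0.636 (95% interval 0.566 to 0.714).

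Kcne2 is annotated with 2 transcripts that start at different places. All of its reads, 815 and 455, were assigned to ENSMUST00000047383.5, which starts at 92292389. The other transcript, ENSMUST00000113971.1, starts at 92295616 inside the gene and received 0 reads in both libraries. The deposited intervals of that transcript still reached 4.06 TPM in pool 1 and 2.57 in pool 2, and the transcripts differ only in their first, noncoding exon. The 250 bases before each start are shown because reads were assigned to one start and not the other. Both are from the RefSeq promoter table (GRCm38.p6), forward strand, chr16:92292139-92292388 and chr16:92295366-92295615, and neither held a motif that was searched, so no letters are in capitals.
Kcne2, start with reads: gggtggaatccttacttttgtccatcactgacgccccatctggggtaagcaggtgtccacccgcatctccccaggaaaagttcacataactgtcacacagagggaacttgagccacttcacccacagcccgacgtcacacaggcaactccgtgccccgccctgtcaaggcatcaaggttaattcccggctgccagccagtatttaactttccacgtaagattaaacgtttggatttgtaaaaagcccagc
Kcne2, start without reads: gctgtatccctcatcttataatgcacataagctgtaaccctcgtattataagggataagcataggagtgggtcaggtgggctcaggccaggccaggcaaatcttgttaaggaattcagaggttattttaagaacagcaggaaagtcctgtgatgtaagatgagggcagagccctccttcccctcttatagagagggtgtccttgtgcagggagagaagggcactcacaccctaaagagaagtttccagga
The window before the first start had 52.4% G and C, and the window before the start inside the gene 48%.

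Kcnj13 (ENSMUSG00000079436.3) lies on the reverse strand of chromosome 1, from 87386363 to 87394729. It was at 6.49 TPM in pool 1 (deposited interval 5.16 to 8.94) and 5.58 in pool 2 (4.74 to 6.95), a mean of 6.04 ± 0.643 (SD, n = 2). The deposited intervals overlapped. Its pool ratio was -0.08 on log2(TPM + 1) and 0.10 on expected counts (196 and 185; 95% interval -0.19 to 0.40), so the direction turned with the scale. The transcripts differed in this. The full-length ENSMUST00000113212.3 was at 5.58 TPM in both libraries, and the 261 nt transcript ENSMUST00000174179.1 was at 0.91 TPM in pool 1, from 4.35 expected counts, and at 0 in pool 2.

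The whole of Kcnj13 lies inside Gigyf2, a gene on the opposite strand with 39.5 and 45.4 TPM. Of the 1270 exonic bases of ENSMUST00000113212.3, 623 are also exonic in Gigyf2. No source used here states whether the counting used strand, so the part of the Kcnj13 reads that came from Gigyf2 was not tested.

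Slc4a5 and Clic6 had low but detected levels, and each had 1 transcript that took nearly all of its reads. SLC4A5 (NBCe2) moves sodium together with bicarbonate across the apical membrane, and CLIC6 belongs to the chloride intracellular channel family. Clic6 was further apart between the pools than Slc4a5 on the scales shown here.

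Clic6 (ENSMUSG00000022949.5; chromosome 16, 92485736 to 92541243, forward strand) was at 3.61 TPM in pool 1 (deposited interval 3.26 to 4.31) and 2.35 in pool 2 (2.08 to 2.91), a mean of 2.98 ± 0.891 (SD, n = 2). Pool 1 was the higher and the intervals did not overlap. The pool ratio was -0.35 on log2(TPM + 1), and -0.49 on expected counts (388 and 243; 95% interval -0.72 to -0.25). All reads were assigned to ENSMUST00000023670.3, which starts at 92498134, and 0 to the 376 nt transcript ENSMUST00000162181.3, which starts at 92485736.

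Kcne2 and Clic6 are neighbours in a wide sense, 187607 bases apart on the same strand of chromosome 16. Of 8 annotated genes between them 5 were in the tables. Smim11 (84.7 and 83.0 TPM) and Rcan1 (34.0 and 26.9 TPM) were more abundant than both, with pool ratios of 0.08 and -0.22. Kcne1, a relative of Kcne2, was at 0.47 and 0.21 TPM, 1700048M11Rik at 0.35 and 0.92, and Fam243 at 0 in both. Genes between the pair thus did not share one pool ratio.

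Slc4a5 (ENSMUSG00000068323.8; chromosome 6, 83219828 to 83304945, forward strand) was at 2.39 TPM in pool 1 (deposited interval 2.31 to 3.64) and 1.75 in pool 2 (1.75 to 3.02), a mean of 2.07 ± 0.453 (SD, n = 2). Both values lay at the low end of intervals that overlapped. The authors' posterior mean TPM was higher, 2.92 and 2.33. The pool ratio was -0.19 on log2(TPM + 1), and -0.24 on expected counts (336 and 249; 95% interval -0.49 to -0.0036). Of 6 transcripts, ENSMUST00000039212.7 took 94.6% and 98.3% of the gene's TPM, and ENSMUST00000113900.3, which starts upstream at 83219828, had 0 reads.

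The 250 bases before the start in use of Slc4a5 and of Kcnj13 are shown because they were the only windows, among those searched, in which a searched motif occurred. Entries of 5 of the 8 genes were searched, 6 entries of 32851 in the table. No window of the other genes was searched, so nothing is said of motifs there. Each window was searched on both strands for 4 short motifs. The TATA box was searched as TATAAA and occurred in 12.4% of all promoter windows of this length. The core bound by OTX factors was searched as TAATCC and occurred in 6.25%. The homeodomain core, TAATTA, occurred in 4.84%, and the E-box, CACGTG, in 6.02%. The last 2 motifs read the same on both strands, and the matches printed here do not overlap another motif. Capitals mark the match, which begins 29 bases before the start in Kcnj13 (reverse strand, chr1:87394730-87394979) and 127 bases before it in Slc4a5 (forward strand, chr6:83237125-83237374), there as TTTATA because the motif is on the opposite strand.
Kcnj13: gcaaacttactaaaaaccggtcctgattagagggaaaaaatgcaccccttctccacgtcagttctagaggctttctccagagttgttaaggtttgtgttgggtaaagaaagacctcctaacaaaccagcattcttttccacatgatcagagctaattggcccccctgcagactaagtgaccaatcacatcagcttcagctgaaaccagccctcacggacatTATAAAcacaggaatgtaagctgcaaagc
Slc4a5: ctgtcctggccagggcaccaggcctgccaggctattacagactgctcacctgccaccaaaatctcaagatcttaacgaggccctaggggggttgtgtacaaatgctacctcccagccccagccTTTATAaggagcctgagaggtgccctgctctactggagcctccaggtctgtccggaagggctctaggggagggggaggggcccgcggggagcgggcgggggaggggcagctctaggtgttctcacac
The windows of Kcne2, Gdf7 and Kl held none of these letters.

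Folr1 was nearly equal in the 2 pools as a gene, while the shares assigned to its transcripts differed within wide deposited intervals. FOLR1 is the high-affinity folate receptor that carries folate across the choroid plexus epithelium. The gene (ENSMUSG00000001827.7) lies on the reverse strand of chromosome 7, from 101858331 to 101870788. It was at 8.60 TPM in pool 1 (deposited interval 6.78 to 10.5) and 8.33 in pool 2 (6.41 to 10.3), with an SD of 0.191 (n = 2), and the intervals overlapped almost entirely. Expected counts were 155 and 121, a ratio of 0.889 (95% interval 0.695 to 1.14), while the ratio on log2(TPM + 1) was 0.07. The signs of the 2 scales differ, and the deposited effective length of the gene, by which TPM divides, was 613 nt in pool 1 and 514 nt in pool 2.

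Reads were assigned to 8 of 17 Folr1 transcripts in pool 1 and to 6 in pool 2. The leading one, ENSMUST00000106981.3 (960 nt, starting at 101864145), was at 4.38 TPM in pool 1 (deposited interval 1.84 to 4.47) and 2.67 in pool 2 (0.252 to 2.71). It took 71.5% of the gene's expected counts in pool 1 (exact binomial 95% interval 63.8% to 78.6%) and 53.8% in pool 2 (44.4% to 62.8%). These binomial intervals do not overlap, but they cover counting error only. The deposited TPM intervals, which describe the transcript level itself, do overlap. The 350 nt transcript ENSMUST00000123321.3 was higher in pool 2, with 1.87 TPM in pool 1 (deposited interval 0.153 to 2.81) and 3.40 in pool 2 (0.663 to 4.84), and its intervals overlap too. Together the 8 transcripts under 700 nt held 44.1% of Folr1 TPM in pool 1 and 63.1% in pool 2, from 31.4 and 45.3 expected counts. The 9 longer ones held 4.81 TPM in pool 1 and 3.07 in pool 2. Anapc15, on the opposite strand, overlaps the gene and was at 71.1 and 64.8 TPM, but shares 0 exonic bases with the Folr1 transcripts. Folr2, the closest gene and a relative, was at 0.73 and 1.62 TPM.

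**Figure D2:**
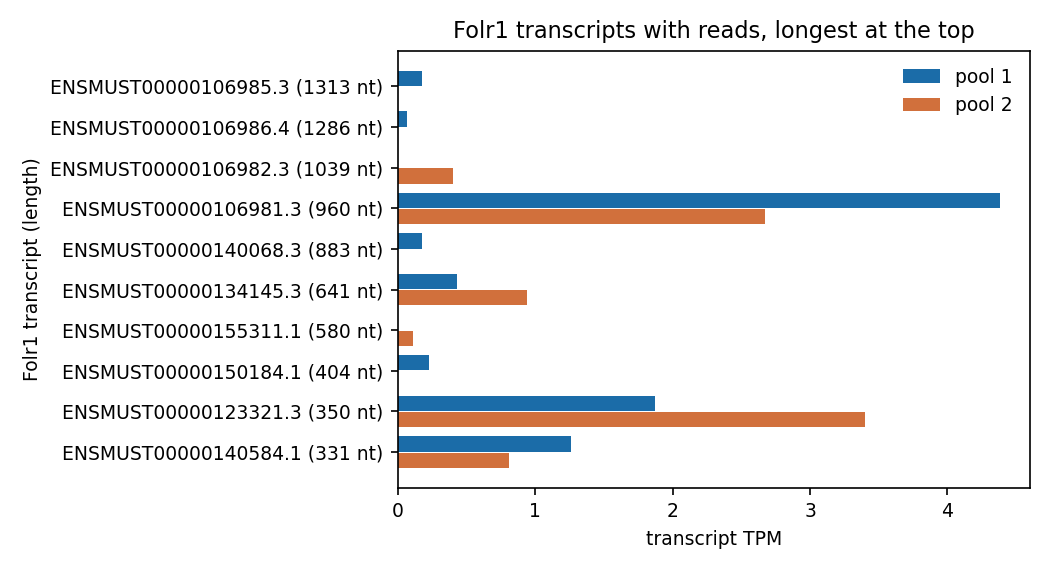
TPM of each Folr1 transcript that had reads in at least 1 library, longest at the top, with pool 1 in blue and pool 2 in orange; bars start at 0 and carry no error bars, and the deposited intervals of the leading transcripts overlap between the pools. The 960 nt transcript is higher in pool 1, at 4.38 against 2.67 TPM, and the 350 nt transcript is higher in pool 2, at 3.40 against 1.87.

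Kl was at the edge of detection. It encodes Klotho, a co-receptor for FGF23 that is abundant in the mature choroid plexus. The gene (ENSMUSG00000058488.6; chromosome 5, 150952607 to 150993817, forward strand) was at 0.05 TPM in pool 1 (deposited interval 0.0195 to 0.0906) and 0.18 in pool 2 (0.115 to 0.251). Pool 2 was the higher, from 7 and 25 expected counts on 1 transcript. The ratio of expected counts was 4.07 with a wide interval (95% interval 1.71 to 11.1), and the ratio on log2(TPM + 1) was 0.28.

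Gdf7 marks the roof plate rather than the plexus epithelium. It encodes a secreted BMP family ligand that roof plate cells release. The gene (ENSMUSG00000037660.4; chromosome 12, 8297918 to 8301954, reverse strand) was at 1.04 TPM in pool 1 (deposited interval 0.740 to 1.37) and 0.41 in pool 2 (0.229 to 0.636), a mean of 0.725 ± 0.445 (SD, n = 2). Pool 1 was the higher and the intervals did not overlap. Counts of 40 and 15 gave a ratio of 0.427 (95% interval 0.219 to 0.790). Its neighbour Hs1bp3 was at 5.17 and 4.74 TPM.

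Side by side on log2(TPM + 1), and taken against the median gene, 6 of the 8 had a lower value in pool 2 (against 50% of all genes, which the median fixes) and 2 a higher one, Folr1 and Kl. The median gene itself differed by -0.11 on that scale and by -0.19 on expected counts, and all ratios are relative to it. A value at least 1.5-fold lower in pool 2, the fold used here to call a difference, was reached by 1 of the 8, Kcne2, against 1.63% of the 14942 genes whose mean TPM was 1 or more. Among genes with at least 100 reads on average the share was 0.837%. In the other direction 0 of the 8 passed, against 4.35% of those genes. The median ratio of the 8 was -0.27, where the median of all genes is 0 by construction. Of the 6 detected genes 5 had lower values in pool 2. By expected counts 2 of the 8, Kcne2 and Gdf7, were lower by that fold, against 3.09% of genes.

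The call on Gdf7 and Kl turned on how low values were treated. With a pseudocount of 0.1 in place of 1, 2 of the 8 were lower by the fold used (Kcne2 and Gdf7, against 3.09% of genes) and 1 was higher (Kl, against 6.66%). Gdf7 and Kl lie below the mean TPM of 1 that those background genes reach. Among the 4674 genes of any TPM with 10 to 100 reads, as both have, 12.4% were lower and 26.8% higher by that fold. On expected counts the 95% counting interval lay below 0 for 5 genes (Ttr, Kcne2, Clic6, Slc4a5 and Gdf7), above 0 for Kl, and across 0 for Folr1 and Kcnj13. The last 2 are also those whose direction differed between TPM and counts. The share of all genes whose interval leaves out 0 was not counted, so these numbers have no background beside them. Deep genes can leave out 0 at a small ratio: for the erythroid marker Hbb-y, at 0.02, the interval was 0.0073 to 0.030.

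**Figure D3:**
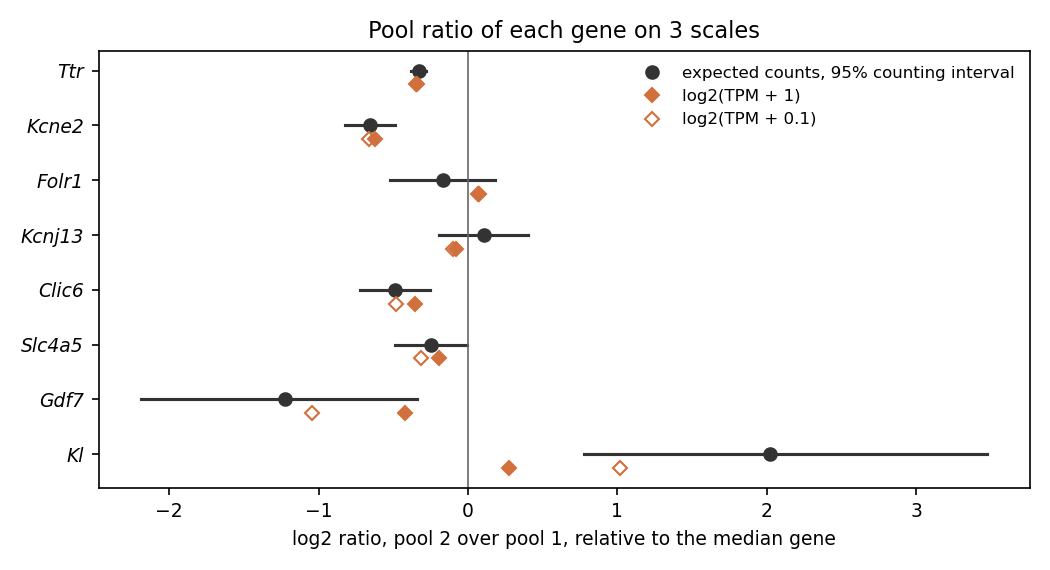
Log2 ratio of pool 2 over pool 1 relative to the median gene for each of the 8 genes: black points on expected counts with 95% counting intervals, filled diamonds on log2(TPM + 1), open diamonds on log2(TPM + 0.1). The points of Ttr, Kcne2, Clic6, Slc4a5 and Gdf7 lie left of 0 on all 3 scales, Kl lies right of it, and Folr1 and Kcnj13 change side.

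Counting error is not the whole spread between 2 libraries, so the ratios were also read against genes with like depth. Among 3367 genes with 300 to 1000 reads, 5% had a count ratio below -0.38 and 5% above 0.55. Kcne2 (-0.65) and Clic6 (-0.49) lay below that range. For 1000 to 10000 reads the limits were -0.30 and 0.35, with Ttr at -0.33 just under the lower one. For 100 to 300 reads they were -0.64 and 0.85, and Folr1 (-0.17), Kcnj13 (0.10) and Slc4a5 (-0.24) lay inside. These bins hold genes whose mean TPM was 1 or more, which leaves out Gdf7 and Kl. Among genes of any TPM with 10 to 100 reads the limits were -1.24 and 1.77, with Gdf7 (-1.23) just inside and Kl (2.02) above. Genes without reads in pool 1 were left out of these limits, while those without reads in pool 2 were kept. Both limits may therefore lie too low, and the places of Gdf7 and Kl against them are uncertain.

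**Figure D4:**
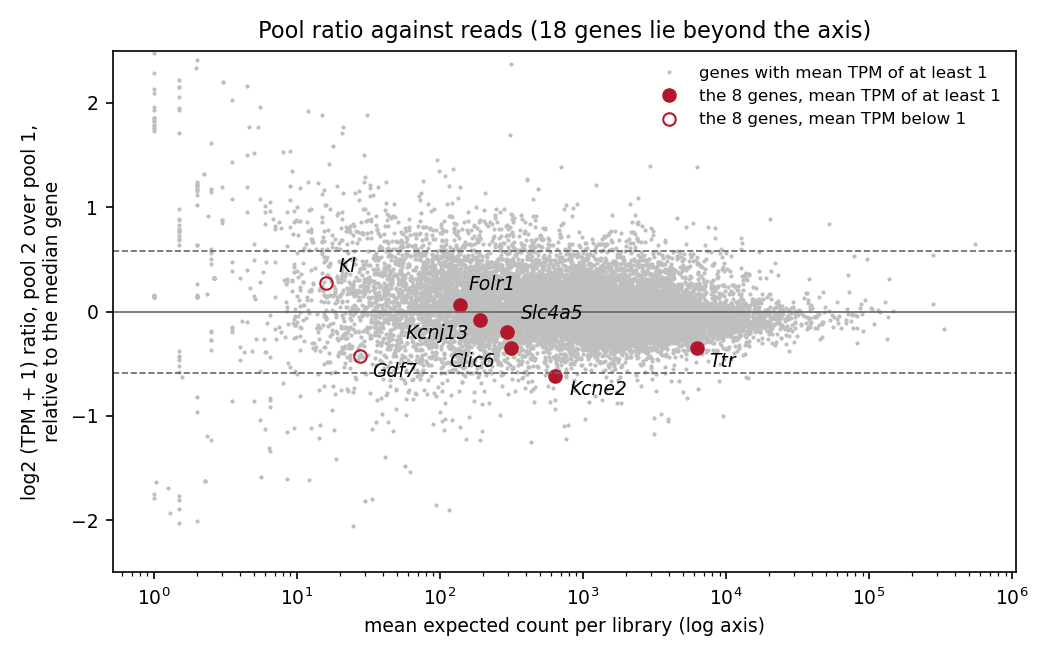
Log2(TPM + 1) ratio of pool 2 over pool 1 relative to the median gene (linear axis) against the mean expected count per library (log axis) for genes whose mean TPM was 1 or more (grey) and the 8 genes (red, open where mean TPM is below 1); dashed lines mark 1.5-fold and 18 genes lie beyond the axis. Kcne2 at -0.62 is the only one of the 8 outside the dashed lines.

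Other genes of the choroid plexus epithelium lay on both sides of the median gene. Of 20 listed, 14 were detected, 8 of these 14 were lower and 6 higher in pool 2, and 0 were 1.5-fold apart in either direction on log2(TPM + 1). With a pseudocount of 0.1, 2 of the 14 were lower by that fold (Calml4 and Cldn3, against 3.09% of genes) and 1 higher (Sostdc1, against 6.66%). By expected counts 3 were lower (Htr2c besides, against 3.09% of genes) and 1 higher (Sostdc1, against 6.45%). Their median pool ratio was -0.02. The highest were Igfbp2 (393 and 386 TPM), a binding protein for insulin-like growth factors, Car2 (81.3 and 72.4), a carbonic anhydrase, and Enpp2 (24.4 and 22.4), which encodes autotaxin. These are also made by other embryonic cells. Otx2 was at 10.3 and 9.28 TPM and the serotonin receptor gene Htr2c at 3.18 and 2.54. Calml4 (4.65 and 2.73 TPM) and the claudin gene Cldn3 (3.99 and 2.41) had the lowest pool ratios, -0.49 and -0.44, while Sostdc1, a BMP and WNT antagonist, had the highest, 0.56. Prlr, the prolactin receptor gene, was lowest in level, at 0.14 and 0.06 TPM, and the water channel gene Aqp1 was at 0.35 and 0.38.

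Among 15 other genes of the roof plate and rhombic lip border, 14 were detected. Lower in pool 2 were 4 of these 14 and higher 10, with a median ratio of 0.12. Msx1 (77.9 and 83.3 TPM) and Msx2 (43.9 and 45.7), homeobox genes downstream of BMP signals, and Gdf10 (16.8 and 13.8), a TGF-beta family ligand, were the highest. Beyond 1.5-fold were Lmx1a, a LIM homeobox factor needed for the roof plate, which was lower in pool 2 (8.57 and 3.86 TPM, ratio -0.87), and Rspo1, an enhancer of WNT signals, which was higher (6.44 and 11.4, ratio 0.84). By that fold 1.63% of all genes tested were lower and 4.35% higher. Gdf6, the closest relative of Gdf7 in the list, was at 0.65 and 0.30 TPM. Gdf7, Gdf6 and Lmx1a were thus all lower in pool 2, while Msx1, Msx2 and Rspo1 were higher relative to the median gene.

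**Figure D5:**
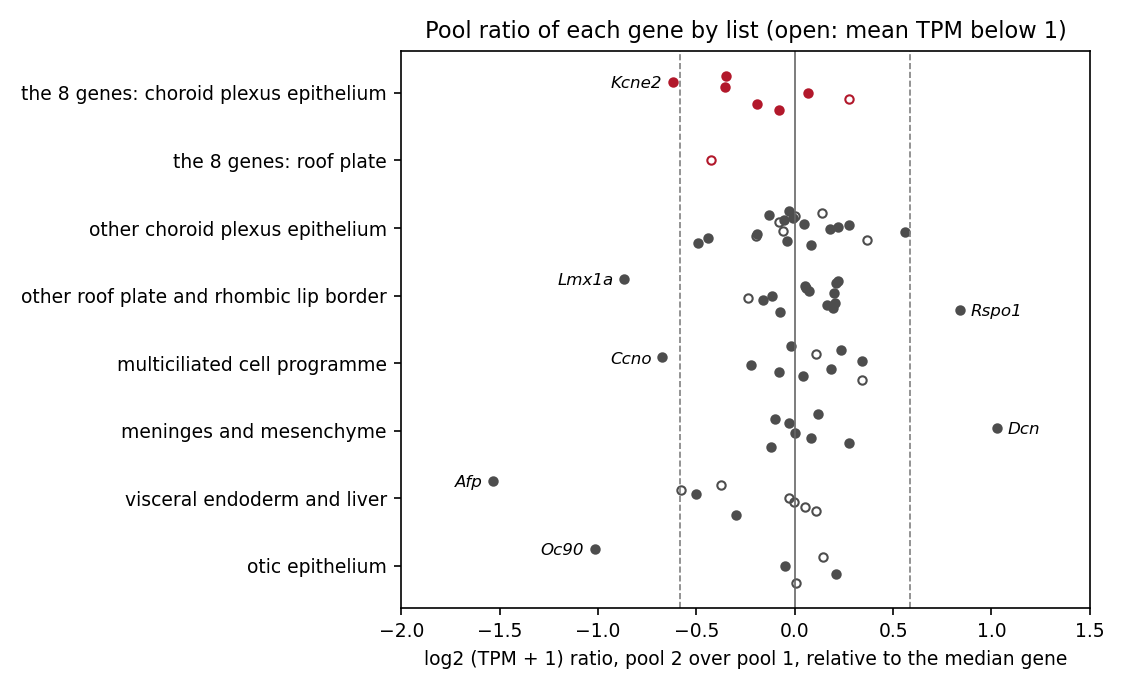
Pool ratio of each gene, log2(TPM + 1) of pool 2 over pool 1 relative to the median gene, for the 8 genes (red) and for 6 other lists (grey); open points have a mean TPM below 1 and dashed lines mark 1.5-fold. Other choroid plexus genes lie on both sides of 0 with a median of -0.02, and Kcne2, Lmx1a, Rspo1, Ccno, Dcn, Afp and Oc90 lie outside the lines.

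Partners of the encoded proteins were present at the same time. Of 14 listed 11 were detected, 9 lower and 2 higher in pool 2, 0 of them by 1.5-fold on log2(TPM + 1), with a median ratio of -0.14. With a pseudocount of 0.1, 1 was lower by that fold (Stra6, against 3.09% of genes), and by expected counts 2 were (Kcnq1 and Bmpr1b, against 3.09%). The FGF receptor gene Fgfr1 (37.2 and 30.5 TPM), which pairs with Klotho, and the BMP receptor gene Bmpr1a (36.7 and 30.6) were among the most abundant. Rbp4, the retinol carrier that transthyretin binds, was at 1.23 and 0.75 TPM, and Kcnq1, the channel partner of KCNE2, at 1.86 and 1.12. Fgf23, the hormone read by Klotho, was lowest, at 0.06 TPM in pool 1 and 0 in pool 2, where 3 counts would have been 0.0619 TPM.

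Ttr is also transcribed in visceral endoderm and fetal liver, so markers of these were read beside it. The 9 markers summed to 27.6 TPM in pool 1 and 17.3 in pool 2, and most of that sum was Trf alone (19.8 and 14.7). Afp was at 2.12 TPM in pool 1 and 0 in pool 2, and Alb at 0.40 and 0, while Apoa2 (3.81 and 2.15) was higher and Serpina1a was 0 in both. In pool 2, 5 of the 9 were at 0. All 3 with a mean TPM of 1 or more (Trf, Apoa2 and Afp) were lower there relative to the median gene, as Ttr was. By construction so were 50% of all genes tested. A count of 3 in pool 2 would have been 0.0534 TPM for Afp and 0.0546 for Alb. The part of these cells in the pool difference of Ttr was not tested.

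Markers of other neighbouring tissues moved unevenly between the pools. Of 5 otic epithelium markers, which summed to 115 and 57.6 TPM, Oc90 was at 105 and 47.6 (ratio -1.02), Pax2 at 7.02 and 7.61, and Otog at 0.18 and 0.10. The 5 markers of retinal pigment epithelium, which expresses Kcnj13, summed to 5.21 and 5.19 TPM, led by Pmel (3.23 and 3.99) and Best1 (0.82 and 0.63), with Rpe65 at 0 in both. All 8 markers of meninges and mesenchyme were detected and summed to 581 and 549 TPM, with Col3a1 at 244 and 221, Col1a2 at 114 and 98.2, and Foxc1 the lowest, at 6.31 and 6.17. Dcn, which encodes decorin, was the only one of the 8 beyond 1.5-fold and was higher in pool 2, at 12 and 23.7 TPM (ratio 1.03), against 4.35% of genes. Erythroid markers summed to 10053 and 9521 TPM and endothelial ones to 79.5 and 70.7. Oc90 thus differed between the pools by more than any of the 6 detected genes described here, and whether the share of dissected tissue differed between the pools was not tested.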

How the data were processed

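Total RNA-seq of 2 libraries of 1 group was analysed, and groups were taken from the labels. Per the labels, extraction used mirVana, a Smart-Seq document is cited as the general protocol, and the assembly was mm10; a readme gives the annotation as GENCODE M4. No source used here states the aligner, the quantification tool or strand settings. Per the file headers, the authors deposited expected counts, which are estimated counts that need not be whole, with TPM and FPKM for genes and transcripts, a posterior mean TPM, an interval around TPM, and for transcripts an isoform percent. Spike-ins count towards the TPM total.

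Symbols, biotypes and GRCm38 (mm10) coordinates, 1-based, came from GENCODE vM21, matched on the identifier without its version: 42462 of 43346 Ensembl genes matched. Promoter windows came from RefSeq on GRCm38.p6, cut to the 250 bases before the start. Pool ratios used log2(TPM + 1), minus the median over genes whose mean TPM was 1 or more. No test between groups was possible. Depth sets the precision of a ratio through the number of reads, so each is given with an exact 95% counting interval. The calculation of ratios and intervals was also run on simulated data. Simulated data do not hold the spread between real pools or the behaviour of genes with few reads in them. That run therefore does not show how well ratios on log2(TPM + 1) or the intervals hold in the real libraries.

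The 8 genes and all gene lists were chosen with earlier results of these data known. Genes named were the 8 themselves; the 3 highest, the lowest and any 1.5-fold apart in each list; the 2 highest and the lowest in each marker list; and genes overlapping or nearest to the 8. Some that this rule selects are not reported here. Others (Otx2, Htr2c, Aqp1, Calml4, Cldn3, Sostdc1, Rbp4, Kcnq1, Stra6, Bmpr1b, Afp, Alb, Dcn and the genes between Kcne2 and Clic6) were named after their values were seen. Alternatives were a pseudocount of 0.1, FPKM, TPM over protein-coding nuclear genes, expected counts, rounded to whole numbers, scaled by TMM (edgeR 4.0.16) or by size factors (DESeq2 1.42.0) in R 4.3.3, other filters and thresholds, and each replicate left out; posterior mean TPM and unscaled expected counts were chosen after seeing the data. Python 3.11.15 was used with SciPy 1.17.1, pandas 2.3.3, Matplotlib 3.10.9 and NumPy 2.4.6 for the rest.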

Additional observations from a re-analysis of the deposited data

How the results depend on the processing

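Of 44 alternative values for the counts and medians over the gene lists, 40 stayed within the limits used. The median ratio of other choroid plexus genes, near 0 throughout, changed sign under 1 of them (0.0029 with the median gene taken over a mean TPM of at least 5). The 4 others concern the number of the 8 genes at least 1.5-fold lower in pool 2, which was 1: it was 2 with a pseudocount of 0.1, 2 with TPM rescaled over protein-coding nuclear genes, 2 with expected counts taken without length or pseudocount (chosen after seeing the data), and 0 at 2-fold. The median ratio of the 8 ranged from -0.33 to -0.24, that of other choroid plexus genes from -0.06 to 0.0029, and that of other roof plate genes from 0.07 to 0.14. The number detected was 4 at a TPM of 5, and with one library alone 6 to 7. Of 127 alternatives for single genes, 14 moved beyond the limits used. For pool ratios these limits were the reach of the counting interval, and for levels and isoform shares the SD over the 2 libraries. For the medians above the limit was the median reach of the counting intervals of the genes, and for the counts a factor of 1.5. Those limits are wide, since 4 genes detected in place of 6 stayed within them. Many of the 14 moves for single genes were of levels under FPKM or TPM over protein-coding nuclear genes, which change the unit. With 2 libraries, leaving 1 out cannot move a level or share beyond that SD, so those alternatives carry no information. Ratios of Folr1 (-0.17 to 0.09) and Kcnj13 (-0.12 to 0.10) took both signs. For each gene the sign differed only on unscaled expected counts, which are not divided by length. Deposited effective lengths differed between pool 1 and pool 2 for Folr1 (613 and 514 nt) and for Kcnj13 (1029 and 1171 nt). The ratio of Kl ran from 0.14 to 2.02. It was 0.28 with a pseudocount of 1, 1.02 with 0.1, and 2.02 on unscaled counts without one. Depth limits Kl and Gdf7, with at most 40 reads per library. No paired analysis was possible because the series holds 1 group.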

Other observations

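Genes of the multiciliated cell programme, which the choroid plexus epithelium uses to build its cilia, were largely present in the whole hindbrain. Which cells held these transcripts was not tested. Of 10 listed 8 reached 1 TPM in both libraries, 4 lower and 4 higher in pool 2, with a median pool ratio of 0.01. The highest were Rfx3 (27.3 and 28.8 TPM), Foxj1 (7.60 and 6.88), a master factor of motile cilia, and Ccdc39 (4 and 3.78). Ccno, a cyclin-like gene of centriole amplification, was 1.5-fold or more lower in pool 2 (3.73 and 1.75 TPM, ratio -0.67), against 1.63% of genes. The axonemal dynein gene Dnah5 was lowest, at 0.14 and 0.34 TPM.

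Paralogs of the 8 genes were unevenly expressed. Of 20 listed 7 reached 1 TPM in both libraries, and of the 8 with a mean of at least 1, 5 were lower and 3 higher in pool 2. Clic4 (111 and 74.8 TPM) and Clic1 (64.6 and 32.2, ratio -0.87) were far above Clic6 in level, and both were lower in pool 2. Kcne1l was at 23.0 and 21.5 TPM, Folr2 at 0.73 and 1.62 (ratio 0.71), and Izumo1r had 0 reads in both libraries, where 3 counts would have been 0.117 and 0.122 TPM.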
